A study of Arabidopsis thaliana with 4 samples.

Results

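Cytochrome P450 enzymes are haem-containing monooxygenases, most of which in plants sit in the membrane of the endoplasmic reticulum and receive electrons from a P450 reductase. They hydroxylate or otherwise oxidise precursors of hormones, lignin, suberin, glucosinolates, phytoalexins and terpenes, and they form one of the largest enzyme families of Arabidopsis thaliana. Families carry a number after CYP, subfamilies a letter and genes a last number, and related families are joined in clans. The P450 genes described here were the probes assigned to 1 gene whose symbol or RefSeq synonym has that form, plus AT5G08250, a P450 gene without a CYP number in the RefSeq table used. Cyclophilins, which share the letters CYP, were left out. This gave 18 genes, each with 1 probe, among 9335 probes with 1 named gene and 22575 probes in all. AT5G08250 was added with earlier results of these data known, because it was the named gene called higher in the mutant, so its values are a description of how it was chosen.

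The genes were measured in roots of nai1-1, a mutant of Arabidopsis that lacks normal ER bodies, against roots of the wild type Col-0. ER bodies are elongated stores derived from the endoplasmic reticulum in Brassicaceae plants, rich in the beta-glucosidase PYK10 in roots. Plants of both genotypes were 20 days old, untreated, and grown on the same plate at 22 °C in continuous light, and total RNA from a pool of 3 plants represented each genotype. The 4 two-colour Agilent arrays each carried both genotypes, arrays 1 and 4 with nai1-1 in Cy3, and the other pair with nai1-1 in Cy5. Separate pools of plants are not stated for them, so p-values measure only the spread between arrays, which may be technical.

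Each value below is a log2 ratio with nai1-1 above and Col-0 below the line, and a negative value means a lower transcript level in the mutant. Means are over 4 arrays (n = 4), followed after ± by their standard error (SE) as fitted by limma. The sign assumes that the software wrote Cy5 over Cy3, as is its custom, and takes the dyes from the labels. If it wrote the inverse, every sign below turns. NAI1, the mutated gene, was at -0.70 ± 0.19 and below Col-0 on all 4 arrays without passing the threshold (limma adjusted p = 0.259), and PYK10 fell by 2.01 ± 0.11 (limma adjusted p = 0.032). The deposited values are ratios without levels, so the root identity of the samples could not be checked against marker levels. Of the marker genes listed for other tissues and cell types, 4 of 15 photosynthesis genes were measured, between -0.18 and -0.09, with 2 of 5 root hair genes, 1 of 5 endodermis genes and 0 of 5 genes of dividing cells and the root tip. None of these 7 measured markers passed the threshold: EXPA7 was at 0.59 and EXPA18 at 0.38, both expansins of root hairs, and the endodermal receptor kinase gene GSO1 at 0.20.

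The measured genes were a narrow sample of the superfamily. The RefSeq table holds 241 genes that meet the rule, in 45 numbered families, and 18 of them had a named probe. Of the 18, 14 belong to subfamily CYP71B, and 1 each to CYP78A, CYP79A and CYP84A. These 17 numbered genes all fall in clan 71, the largest plant P450 clan, and the tables give no family for AT5G08250. CYP71B itself has 36 genes in the table, of which 22 were not analysed here, among them the camalexin gene PAD3. In 11 lists of P450 genes with known roles, written from textbook knowledge, 4 of 91 genes were measured and 8 lists had 0 measured genes. The listed P450 genes of suberin, brassinosteroid, gibberellin, abscisic acid, jasmonate, cytokinin, sterol and root triterpene metabolism were therefore not analysed here. AT5G08250 was on none of the 11 lists, so the lists do not say to which of these roles, if any, it belongs.

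The genotype comparison asked which P450 transcripts differed in roots without normal ER bodies. AT5G08250 was higher in nai1-1 and the other 17 genes stayed within 0.43 log2 units of 0 in their means. In the limma fit over all 22575 probes, with p-values adjusted over all of them, 1 of the 18 was called higher and 0 lower at an adjusted p of 0.05. The background was 0.496% of all probes called in either direction, 0.0133% called higher and 0.483% called lower, and the 1 called gene is the one the rule had added for that call. Among the 17 genes chosen by name alone, 0 were called, the smallest adjusted p was 0.353, and 2 had an unadjusted p under 0.05, against a background of 14.9% of named probes.

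**Figure D1:**
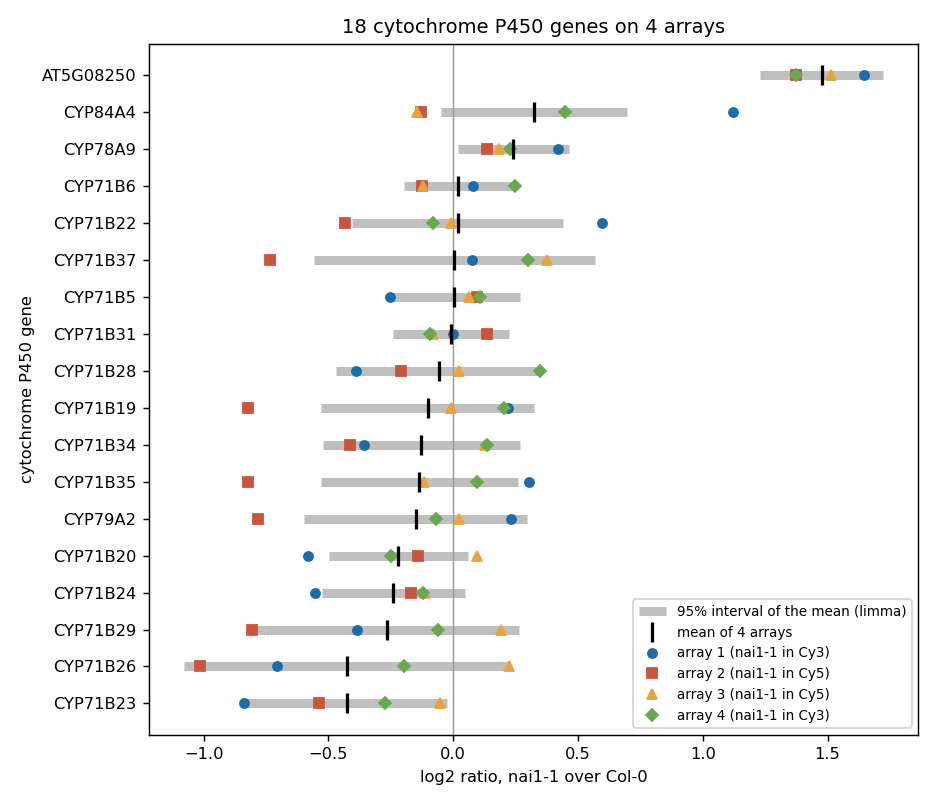
Log2 ratio of nai1-1 over Col-0 (horizontal axis) for each of the 18 cytochrome P450 genes (vertical axis, ordered by mean). Coloured symbols are the 4 arrays, the black stroke is their mean and the grey bar its 95% interval from the limma fit. AT5G08250 lies between 1.37 and 1.64 on every array, while the means of the other 17 genes lie between -0.43 and 0.32.

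AT5G08250 had ratios of 1.64, 1.37, 1.51 and 1.38 on arrays 1 to 4. All 4 values lay above the highest value of any other P450 gene on any array, which was 1.12. Their mean was 1.48 ± 0.09, a 2.78-fold higher level, with a 95% interval of 1.23 to 1.72 and an SD of 0.13 over the arrays. The adjusted p of 0.0327 is the value by which the gene was picked, and it carries no further weight. Averaged over pairs of opposite dye orientation, arrays 1 and 2 gave 1.51 and arrays 3 and 4 gave 1.45, and the dye effect of the fit was -0.03. By its signed mean the gene ranked 2 from the top of the 9335 named probes, or 2 from the bottom if the ratio runs the other way. On each of the 4 arrays its sign was opposite to that of PYK10, under either convention for the direction of the ratio. PYK10 was below Col-0 on all 4 arrays and AT5G08250 was chosen for being above it. The opposite signs thus follow from that choice and carry no further weight.

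The call on AT5G08250 depended on the fit while its size changed little. Leaving out any 1 array gave fitted genotype values of 1.41 to 1.54 with limma adjusted p-values of 0.176 to 0.411. These are not plain means of the arrays left, since the dye term gives both dye orientations equal weight. In each of these fits 0 of all 22575 probes were called. With the means of arrays 1 and 2 and of arrays 3 and 4 treated as 2 replicates the adjusted p was 0.215, or 0.0302 when probes holding a ratio of exactly 0 were also left out. Scaling the arrays to the same spread gave 1.59 with an adjusted p of 0.222. Without the 1016 probes that hold a ratio of exactly 0 on some array, the adjusted p was 0.00177, where 3.61% of probes were called.

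No other P450 gene came close to AT5G08250 in its values. The smallest summed absolute difference from AT5G08250 over the 4 arrays was 4.61 log2 units, for CYP84A4, followed by 4.94 for CYP78A9. The remaining 15 genes differed by 5.82 to 7.61 log2 units. AT5G08250 had the highest value on every array. The summed difference therefore orders the other genes by their means only and does not compare the shapes of profiles. It was taken over 4 arrays only and is a description. AT5G08250 was chosen for being called higher, so its distance from genes chosen by name follows from that choice and carries no further weight.

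**Figure D2:**
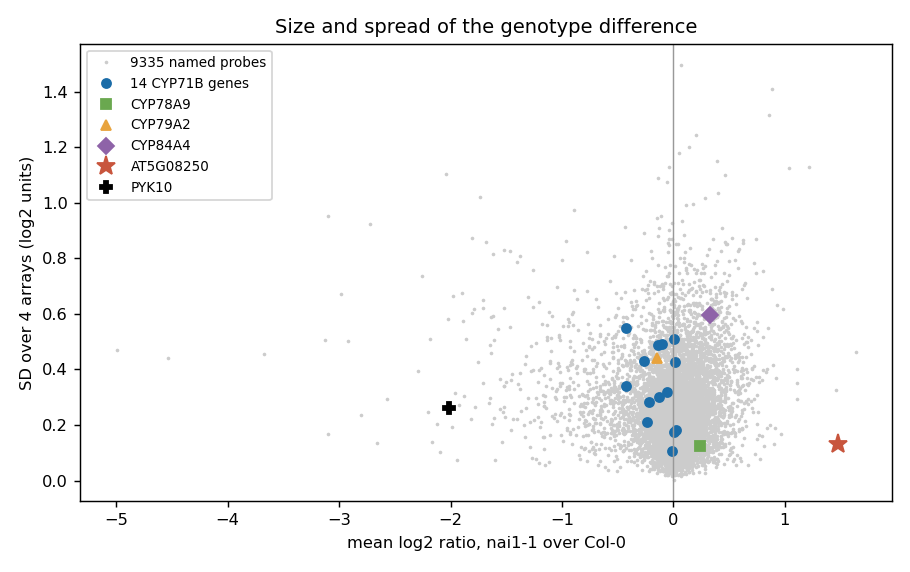
Mean log2 ratio of nai1-1 over Col-0 (horizontal axis) against the SD over 4 arrays in log2 units (vertical axis) for 9335 named probes (grey), with the 18 P450 genes and PYK10 marked. AT5G08250 combines a mean of 1.48 with an SD of 0.13, whereas the CYP71B genes lie near a mean of 0 with SDs of 0.11 to 0.55.

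The genes beside AT5G08250 on chromosome 5 did not share its higher ratio. Among the 10 protein-coding genes on each side in RefSeq order, 8 had a named probe, and 0 of these were called, with means from -0.62 to 0.52. The gene next to it on one side, AT5G08240, had ratios of -0.26, -0.88, -0.58 and -0.75, below Col-0 on all 4 arrays. Its mean was -0.62 ± 0.12 (limma adjusted p = 0.162), so it did not pass the threshold, and its unadjusted limma p was 0.00625. The gene on the other side, the serine carboxypeptidase-like gene scpl35 (AT5G08260), was at 0.05 ± 0.12, with values between -0.46 and 0.35. AT5G08180 was at 1.11 and 1.09 on arrays 1 and 2 and at -0.08 and -0.04 on arrays 3 and 4. Its mean of 0.52 ± 0.29 thus came from 1 pair of arrays (limma adjusted p = 0.536). Whether any of these transcripts overlap, or whether a probe reads more than one gene, was not analysed here.

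**Figure D3:**
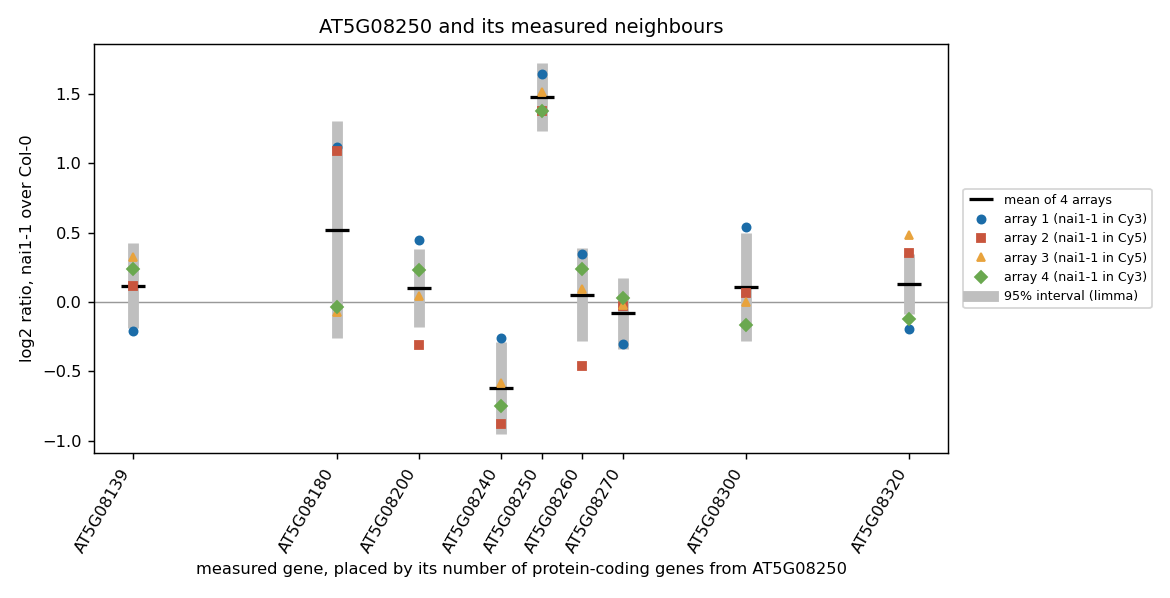
Log2 ratio of nai1-1 over Col-0 (vertical axis) for AT5G08250 and the 8 measured genes among its 10 protein-coding neighbours on each side (horizontal axis, placed by number of genes away). Symbols are the 4 arrays, black strokes their means and grey bars 95% intervals. AT5G08250 stands at 1.48 between AT5G08240 at -0.62 and AT5G08260 at 0.05.

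The 3 numbered genes outside CYP71B are those with the best known roles. CYP78A9 (AT3G61880) belongs to a subfamily that promotes growth of floral organs, fruits and seeds. Its ratios were 0.42, 0.14, 0.18 and 0.23, above Col-0 on all 4 arrays, with a mean of 0.24 ± 0.08. That is 1.18-fold, with a 95% interval of 0.02 to 0.46, and it did not pass the threshold (limma adjusted p = 0.353).

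CYP84A4 (AT5G04330) takes part in the synthesis of arabidopyrones, pyrone metabolites derived from the phenylpropanoid pathway. Its ratios were 1.12, -0.13, -0.14 and 0.45, so it was above Col-0 on the 2 arrays with nai1-1 in Cy3 and below it on the 2 with nai1-1 in Cy5. The dye effect of the fit was -0.46 in Cy5 over Cy3, the largest in size among the 18 genes, with an unadjusted limma p of 0.0258 for the dye term. The genotype mean of 0.32 ± 0.14 did not pass the threshold (limma adjusted p = 0.444). The dye term did not pass the threshold either (limma adjusted p = 0.803). Both terms were thus tested in the same fit and neither was called, while the size of one against the other was not tested.

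CYP79A2 (AT5G05260) converts phenylalanine to its aldoxime, the first step to benzylglucosinolate. Its ratios were 0.23, -0.78, 0.02 and -0.07, with array 2 well below the other 3. The mean of -0.15 ± 0.17 had a 95% interval of -0.60 to 0.30 (limma adjusted p = 0.743). Glucosinolate and indole metabolism was represented by 1 more of 17 listed P450 genes, CYP71B6 (AT2G24180), which acts on indole-3-acetonitrile on the way to indole-3-carboxylic acid. Its ratios of 0.08, -0.13, -0.12 and 0.25 lay on both sides of 0, with a mean of 0.02 ± 0.08 and a 95% interval of -0.20 to 0.24. They too were above Col-0 with nai1-1 in Cy3 and below it with nai1-1 in Cy5. The dye effect of -0.14 did not pass the threshold (limma adjusted p = 0.803).

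The 14 CYP71B genes had means between -0.43 and 0.02, of which 10 were below 0, with a median of -0.11. Over all 9335 named probes the median was 0.02, and 4194 means were below 0. None of the 14 passed the threshold (smallest limma adjusted p = 0.361), and 1 had an unadjusted p under 0.05. The 95% intervals of 13 of the 14 lay within 1 log2 unit of 0, that is within a 2-fold change either way, as did 93.9% of all named probes. The exception was CYP71B26, whose interval reached -1.08. Smaller differences than these intervals allow were not detectable with 4 arrays.

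CYP71B23 (AT3G26210) had the lowest mean of the 18 genes, at -0.43 ± 0.15 (limma adjusted p = 0.361). Its ratios were -0.84, -0.54, -0.05 and -0.27, all below Col-0, with the 2 larger differences on arrays 1 and 2. CYP71B24 (AT3G26230) was the other CYP71B gene below Col-0 on all 4 arrays, at -0.55, -0.17, -0.11 and -0.12, with a mean of -0.24 ± 0.11 (limma adjusted p = 0.456). No specific substrate is given here for either gene. Among the 17 genes chosen by name alone, 3 had the same sign on all 4 arrays, which is 17.6%, where the background was 25% of named probes. AT5G08250 also had the same sign on all 4 arrays, but it was chosen for being called higher and is not counted here.

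CYP71B26 (AT3G26290) had almost the same mean as CYP71B23, at -0.42 ± 0.24, but with ratios of -0.71, -1.02, 0.22 and -0.20 and the largest SD of the subfamily, 0.55. CYP71B29 (AT1G13100) was at -0.39, -0.81, 0.19 and -0.06, and CYP71B20 (AT3G26180) at -0.58, -0.14, 0.10 and -0.25. In all 3 genes array 3 was above Col-0 and the other arrays below it. Their adjusted p-values in the limma fit were 0.545, 0.628 and 0.475.

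At the other end, 4 CYP71B genes had means between 0.00 and 0.02, and 1 a mean of -0.01. CYP71B31 (AT3G53300), an enzyme that oxidises the floral terpene alcohol linalool, was listed at exactly 0 on array 1 and was at 0.14, -0.08 and -0.09 on the others. With that exact 0 included, it was the least variable of the 18 genes, with an SD of 0.11, and its 95% interval was -0.24 to 0.22. CYP71B5 (AT3G53280) had ratios of -0.26, 0.09, 0.06 and 0.11. CYP71B22 (AT3G26200) had a mean of 0.02 from values that ran from -0.44 on array 2 to 0.59 on array 1, and CYP71B37 (AT3G26330) a mean of 0.00 from values that ran from -0.73 on array 2 to 0.38 on array 3. A mean near 0 thus stood for values within 0.14 of 0 in CYP71B31 and for larger opposite values in CYP71B22 and CYP71B37.

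The CYP71B ratios differed between the arrays. The median of the 14 genes was -0.31 on array 1 and -0.43 on array 2, against 0.01 on array 3 and 0.02 on array 4. On array 1, 8 of the 14 were below Col-0, where 48.1% of named probes were. On array 2 it was 12 of 14, where 46.7% of named probes were, and on arrays 3 and 4 it was 7 of 14 each. Ratios below -0.5 occurred in 4 of the 14 genes on array 1 and 6 on array 2, against 9.01% and 11.6% of named probes. They occurred in 0 genes on arrays 3 and 4, against 5.11% and 5.73% of named probes. With the arrays taken as pairs of opposite dye orientation, the median was -0.32 on arrays 1 and 2, with 12 of 14 below 0. It was 0.04 on arrays 3 and 4, with 6 of 14 below 0. Of named probes, 46.9% and 48.9% were below 0 in these pair means. In 12 of the 14 genes the mean of arrays 1 and 2 was the lower of both pair means, against 47.7% of named probes. This grouping of the arrays was made with the data in view and was not tested.

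**Figure D4:**
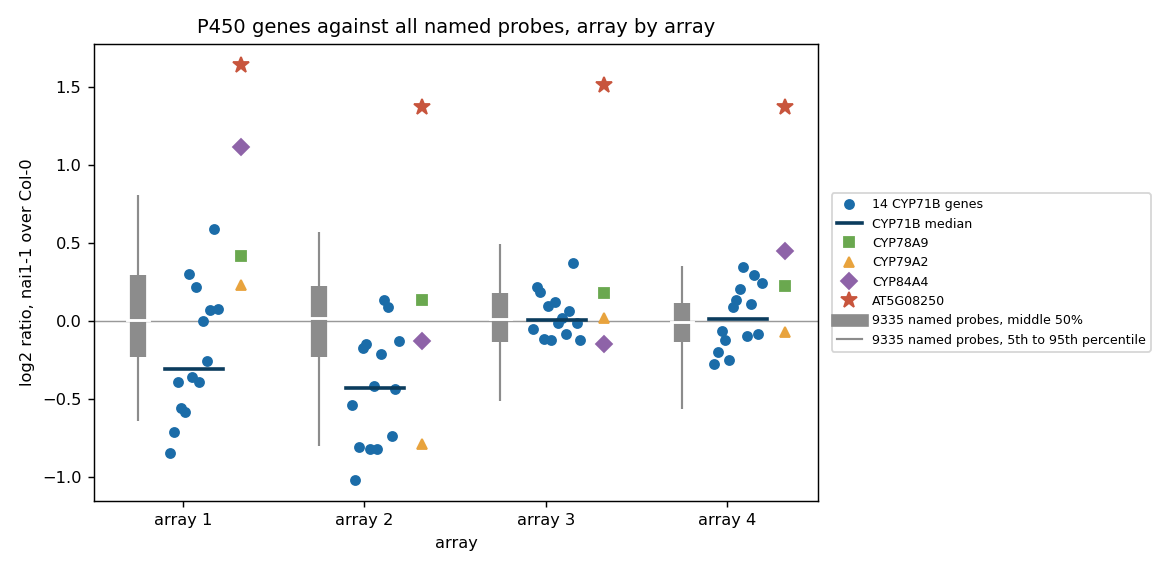
Log2 ratio of nai1-1 over Col-0 (vertical axis) on each array (horizontal axis) for the 14 CYP71B genes (blue points, dark line at their median) and the 4 other P450 genes. Grey bars show the middle 50% and thin grey lines the 5th to 95th percentile of the 9335 named probes. The CYP71B median lies at -0.31 and -0.43 on arrays 1 and 2 and at 0.01 and 0.02 on arrays 3 and 4, while AT5G08250 is at 1.37 or above throughout.

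Other values also differed between arrays, not all of them in the same pairs. Arrays 1 and 2 were wider over all named probes, with median absolute deviations of 0.39 and 0.33 against 0.23 and 0.19, although their medians were 0.01 and 0.02. On array 2 the 4 measured photosynthesis genes were all below Col-0, between -0.56 and -0.37, and on array 1 they lay between -0.15 and 0.10. On array 3 they lay between -0.24 and 0.07, and on array 4 between -0.05 and 0.20. The part of array spread and of shoot tissue in the CYP71B values was not tested. Without array 1 the CYP71B median was -0.12 with 10 of 14 genes below 0, as with all 4 arrays. Without array 2 it was -0.00 with 7 of 14 below 0, without array 3 it was -0.27 with 11 below 0, and without array 4 it was -0.17 with 12 below 0. These come from fitted values in which both dye orientations have equal weight. The array left alone in its orientation thus counts for more, and this was not separated from the removal of an array.

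The CYP71B genes lie in groups on the chromosomes, and 9 of the 14 come from 1 group on chromosome 3. Between AT3G26170 (CYP71B19) and AT3G26330 (CYP71B37) the RefSeq table holds 18 protein-coding genes, of which 14 are CYP71B genes and 4 are not. All 9 measured CYP71B genes of this group were below Col-0 on array 2, from -1.02 to -0.14, while on each of the other 3 arrays 5 of 9 were below. Their median was -0.36 on array 1, -0.54 on array 2, -0.01 on array 3 and -0.08 on array 4. Of the 4 genes in the group that are not P450 genes, AT3G26240 was measured, at -0.21, -0.06, -0.08 and -0.00, with a mean of -0.08 ± 0.08 (limma adjusted p = 0.709).

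Neighbours within the group did not have equal ratios. CYP71B22 and CYP71B23 are adjacent and had means of 0.02 and -0.43, with 0.59 against -0.84 on array 1. CYP71B19 and CYP71B20, also adjacent, were at 0.22 and -0.58 on array 1 and at -0.82 and -0.14 on array 2. CYP71B26, CYP71B34 and CYP71B35 follow each other, with means of -0.42, -0.13 and -0.14. All 3 were low on array 2, at -1.02, -0.42 and -0.82, but on array 1 CYP71B34 was at -0.36 and CYP71B35 at 0.30. These differences between neighbours were not tested. Members of such groups can be similar in sequence, and signal shared between their probes was not assessed, since probe sequences were not analysed here.

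**Figure D5:**
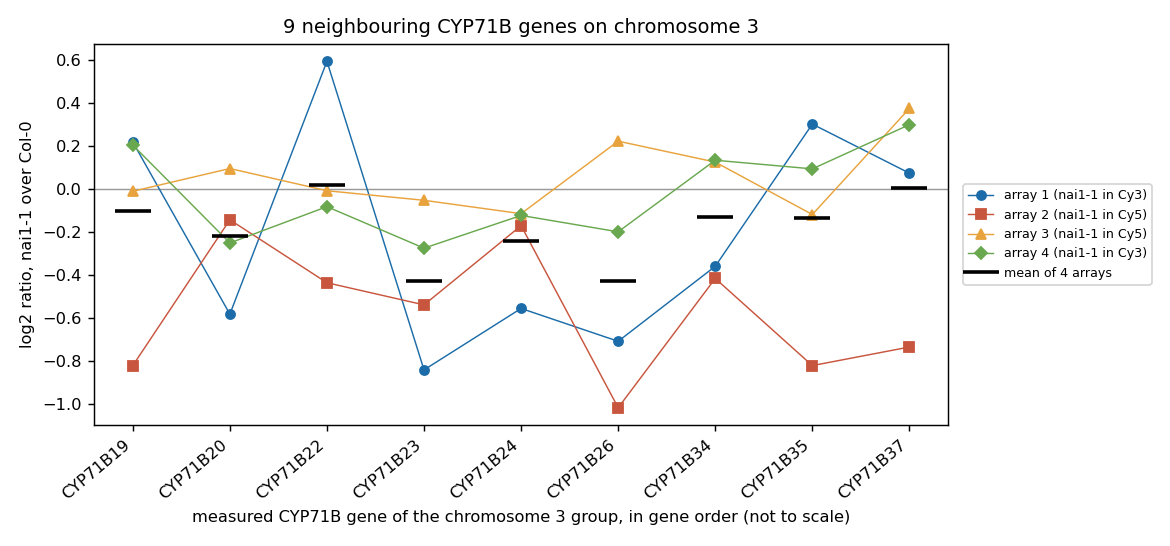
Log2 ratio of nai1-1 over Col-0 (vertical axis) for the 9 measured CYP71B genes of the chromosome 3 group, in gene order (horizontal axis, not to scale). Lines join the values of 1 array and black strokes are means of 4 arrays. Array 2 is below 0 for all 9 genes, whereas arrays 3 and 4 stay between -0.27 and 0.38.

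The other pairs of neighbours were on chromosomes 1 and 3. CYP71B28 (AT1G13090) is adjacent to CYP71B29 and had ratios of -0.39, -0.21, 0.02 and 0.35, with a mean of -0.06 ± 0.15 against -0.27 ± 0.19 for CYP71B29. Both were below Col-0 on arrays 1 and 2 and above it on array 3, and they were on opposite sides of 0 on array 4. CYP71B5 and CYP71B31, with 2 other genes between them, were at 0.00 ± 0.10 and -0.01 ± 0.09. CYP71B5 was the higher of them on arrays 3 and 4 and the lower on arrays 1 and 2.

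The dye term, which holds no genotype difference, was called for 0 of the 18 genes (smallest limma adjusted p = 0.803), with 1 gene at an unadjusted p under 0.05. Over named probes the background was 0% called and 3.29% at an unadjusted p under 0.05. After CYP84A4 the largest dye effects were -0.33 for CYP71B35 and -0.31 for CYP71B19. An absolute dye effect over 0.3 occurred in these 3 of the 18 genes and in 5.08% of named probes.

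P450 enzymes of the endoplasmic reticulum depend on reductases, cytochrome b5 and membrane proteins that hold the complexes together. Of 11 genes listed as such partners, 1 was measured, AT3G02280, also listed as TAH18, which encodes a diflavin reductase. Whether it serves any P450 enzyme was not tested. Its ratios were 0.11, -0.32, -0.17 and 0.05, above Col-0 where nai1-1 was in Cy3 and below it where nai1-1 was in Cy5, with a mean of -0.08 ± 0.08 (limma adjusted p = 0.714). The main P450 reductases and the cytochrome b5 genes were not analysed here. Outside the naming rule, CYP718 (AT2G42850), a P450 gene whose symbol has no letter, was at -0.05 ± 0.08 (limma adjusted p = 0.834).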

How the data were processed

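The authors deposited log10 ratios, 1 for each probe on each array. Per the submitters' processing notes they came from Agilent Feature Extraction 7.1, and its settings for background and dyes are not given here. Ratios were multiplied by 3.32 to give log2 ratios and turned to nai1-1 over Col-0 by the dyes in the labels. No further normalization was applied, and array medians were 0 or -0.00. Intensities and flags were not analysed here, so dim, saturated and control spots were not removed.

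Probes were named through the platform annotation, updated by Entrez identifier with a RefSeq gene table (assembly TAIR10.1, used for names and gene order only): 9335 probes had 1 gene (9317 matched), 40 had several and 13200 were not listed.

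limma 3.58.1 in R 4.3.3 (lmFit, eBayes) was fitted to all 22575 probes with genotype and dye terms, two-sided, with Benjamini-Hochberg adjustment over all probes at 0.05, and was tested on simulated data. The number of arrays limits the precision. No pair of arrays held identical values. Alternatives changed the dye term, the probes with an exact 0, the arrays included, their averaging, centring, scale and weights, the eBayes prior and the rule for members. All 18 members are named. Singled out by rule were AT5G08250, genes with the same sign on 4 arrays, listed roles and partners. The largest dye effects and the values nearest to AT5G08250 were also singled out by rule. Neighbouring genes were chosen by position. The members, the gene lists and the rule were chosen with earlier results of these data known.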

Additional observations from a re-analysis of the deposited data

Results flagged for a closer look

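In 2 of the 18 P450 genes, a single array lay away from the other 3 by Dixon's test at its 95% critical value, where chance gives about 1 in 20. CYP71B24 was at -0.55 on array 1 against -0.17 to -0.11 on the other arrays. CYP71B5 was at -0.26 on array 1 against 0.06 to 0.11. Of 31 values tested, including markers, NAI1, NAI2, PYK10 and the medians of the P450 genes, these were the 2 found. Array 1 had the largest spread of the 4 arrays over named probes, and its part in these values was not tested.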

How the results depend on the processing

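Of all 22575 probes 112 were called. The count was 394 without the dye term, 778 without probes holding an exact 0, 531 with a robust eBayes prior, and 0 with arrays 1 and 2 and arrays 3 and 4 averaged as 2 replicates, with arrays scaled to 1 spread, and with any array left out (range 0 to 0). Averaged pairs without probes holding an exact 0 gave 121 probes and 1 P450 gene, AT5G08250 (adjusted p = 0.0302). The number of P450 genes called was 1, and it was 0 with averaged pairs on all probes, scaled arrays or an array left out. AT5G08250 then missed the threshold at 1.48 with averaged pairs, at 1.59 with scaled arrays, and at 1.41 to 1.54 with an array left out. The cause of these changes was not tested. The 17 other P450 genes were called under none of the alternatives run (smallest adjusted p = 0.221). With scaled arrays CYP71B28 turned to 0.024 and CYP71B22 to -0.020. Fits without 1 array give both dye orientations equal weight, so their values are not plain means of the arrays left. Leaving out each array changed the sign of 10 genes, with ranges of -0.24 to 0.13 (CYP71B28), -0.15 to 0.19 (CYP71B22), -0.35 to 0.052 (CYP79A2), -0.31 to 0.040 (CYP71B35), -0.26 to 0.0069 (CYP71B34), -0.30 to 0.10 (CYP71B19), -0.088 to 0.094 (CYP71B5), -0.063 to 0.045 (CYP71B31), -0.27 to 0.28 (CYP71B37) and -0.022 to 0.062 (CYP71B6). The median of the 18 genes ran from -0.26 to 0.01, and that of CYP71B, an alternative added after seeing the data, from -0.27 to -0.00. The rule for members changed no count.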
